A study of Arabidopsis thaliana with 9 samples.

Results

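On a one-colour array of Arabidopsis thaliana noncoding transcripts, 292 of 3569 transcription units named by number alone gave a consistent signal in both mutants and not in the wild type. A transcription unit, TU in the array's names, is a transcribed stretch with no gene symbol in the files. The units were chosen by the scanner software's flag for a signal well above background. None of their probes carried the flag on all 9 arrays, while at least 1 probe carried it on all 6 mutant arrays, so the wild type could have it on 0 to 2 arrays. The contrast of the mutants with the wild type therefore chose these units, and values against the wild type are a description without a test. The rule did not use the difference between the mutants, which was tested. Relative to the level of each array, however, the lowest flagged signal was lower in se-2 than in cbp20 cbp80. The choice can therefore bear on that difference for units near the threshold.

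Seedlings 2 weeks old had been grown on solid MS medium in long days. The 3 genotypes were the SERRATE mutant se-2, the cbp20 cbp80 double mutant and the Columbia wild type (Col-0, WT), each with 3 arrays that the study's design text calls biological replicates. RNA of whole seedlings was labelled with Cy3 after linear amplification, so fewer cells of a type and less RNA per cell cannot be told apart. The 6 mutant arrays shared 1 slide and each WT array lay on another, so that slide and genotype cannot be told apart in any comparison with WT. Each WT array also differed from the mutant arrays in the version or the protocol of the scanner software, which sets the flag. Software and genotype therefore cannot be told apart there either.

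SERRATE is a zinc finger protein that helps the Dicer enzyme DCL1 cut microRNA precursors accurately. CBP20 and CBP80 form the nuclear cap-binding complex, which binds the cap of new transcripts made by RNA polymerase II and takes part in splicing and in microRNA precursor processing. Long intergenic noncoding RNAs are capped transcripts from between protein-coding genes, and the study's title names their regulation by these 3 proteins.

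Levels are given as scaled log2 signals, the log2 of the processed signal minus the 75th percentile of the same array over those 1835 probes that carried the flag on every array. A unit is represented by its brightest qualifying probe, and 0 on this scale is the level of a bright probe. Of 15013 probes, the flag was set for 3286 to 3563 in se-2, for 2809 to 3203 in cbp20 cbp80 and for 2192, 3711 and 3147 in WT replicates 1 to 3. WT replicate 1 thus had the fewest. None of the 292 units was found in the reference gene table (TAIR10.1), and of 10 tissue and housekeeping markers 0 were on the array, so the seedling label could not be checked. Nor did any probe name SERRATE, CBP20 or CBP80.

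Signals of different probes depend on the probe and do not rank transcripts, and the rule itself favours probes near the flag's threshold. The median scaled log2 signal of the 292 units was -5.23 in se-2, -4.88 in cbp20 cbp80 and -5.60 in WT. The mean mutant level lay within 1 log2 unit of the lowest signal well above background for 80 of the 292 units (27.4%) and within 2 for 230 (78.8%). By array, the medians were -5.34, -5.22 and -5.24 in se-2, -4.94, -4.84 and -4.81 in cbp20 cbp80, and -5.77, -5.58 and -5.48 in WT. Each median of a mutant array was thus above each WT median, by less than 1 log2 unit. The lowest signal flagged well above background was -6.86, -6.80 and -6.88 on the se-2 arrays, -6.26, -6.16 and -5.79 on the cbp20 cbp80 arrays, and -5.62, -6.39 and -5.98 on the WT arrays. This lowest flagged signal was thus higher on WT replicate 1 than on any mutant array.

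**Figure D1:**
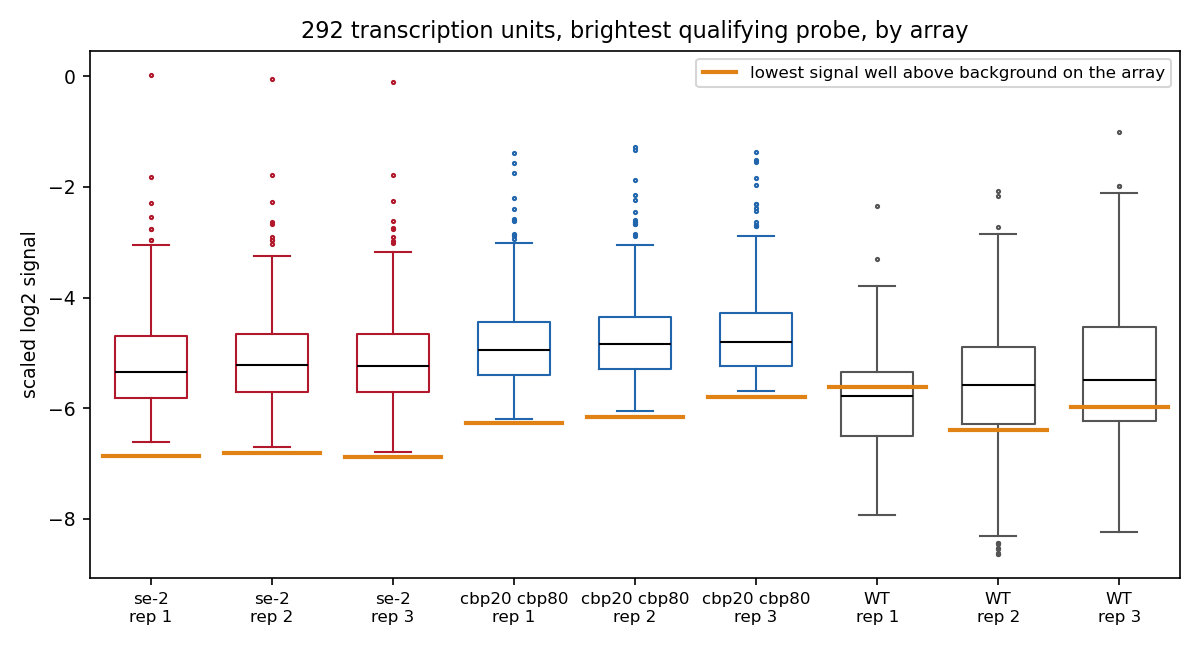
Scaled log2 signal of the 292 units by array (boxes: quartiles and median, whiskers to 1.5 box lengths, points beyond), with the lowest signal well above background on each array as an orange line. The 6 mutant medians lie between -5.34 and -4.81 and the 3 WT medians between -5.77 and -5.48, and the orange line is lowest on the se-2 arrays.

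Detection in WT was partial for most units. The brightest probe was well above background on 0 WT arrays for 40 units (13.7%), on 1 for 117 (40.1%) and on 2 for 135 (46.2%), and 31 units were dim on all WT arrays by every probe. It was not well above background on WT replicate 1 for 255 units, on replicate 2 for 87 and on replicate 3 for 147. For 100 units (34.2%) WT replicate 1 was the only WT array on which it was dim. Leaving out that array, 186 of the 292 units still met the rule. A laxer flag of the same software, a signal positive and significant against background, was set on all 3 WT arrays for 233 of the 292 units (79.8%), including 13 of the 40. It was set on none for 1 unit. By this laxer flag, most of the units thus had a signal on every WT array.

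The flag did not follow a single level of scaled signal. Among the units, the brightest probe of AT2TU057910 read -4.39 on WT replicate 1 and lacked the flag, although it lay 1.24 above the lowest flagged signal of that array. Outside the rule, AT2TU033770 read -5.48 there and carried the flag at 0.14 above the same lowest signal. The lowest flagged signal was thus no sharp limit of detection, which limits the bounds below that use it. In the opposite patterns, 28 units were flagged on all 3 se-2 and all 3 WT arrays but not on all 9, 5 on all 3 cbp20 cbp80 and all 3 WT arrays, and 58 on all 3 WT arrays and not on all 9. These counts come from the flags that the rule used, and each of the opposite patterns needs the flag on WT replicate 1, the array with the fewest, so nothing is read from their size.

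The replicate arrays were compared within each genotype. The rule asks for the flag on all 6 mutant arrays and its absence on at least 1 WT array for each qualifying probe, so a wider spread in WT is partly set by the choice of units, and nothing is read from it. Across the 292 units, the median SD over 3 arrays was 0.171 in se-2, 0.196 in cbp20 cbp80 and 0.786 in WT. The correlation between replicate arrays over the units was 0.906 to 0.946 in se-2, 0.785 to 0.878 in cbp20 cbp80 and 0.117 to 0.458 in WT. Over all transcripts on the array the same correlations were 0.996 to 0.997, 0.990 to 0.994 and 0.899 to 0.946 in that order of genotypes. Mean levels of the 292 units correlated at 0.793 between se-2 and cbp20 cbp80, at 0.337 between se-2 and WT and at 0.323 between cbp20 cbp80 and WT. These correlations are descriptions that the same choice bears on, over units that share arrays, and the mutants also share a slide.

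The median difference from WT depended on the processing. As measured, the median difference was 0.41 for se-2 minus WT and 0.79 for cbp20 cbp80 minus WT on the log2 scale, and over all 1384 transcripts on the 6 mutant arrays it was 0.045 and 0.34. Levels without the well-above-background flag are less firm, so a bound was also taken. In it each dim WT array counts at the higher of its lowest well-above-background signal and the probe's own. The median at the bound was 0.073 for se-2 and 0.51 for cbp20 cbp80. With quantile normalization, the percentile over all probes and the deposited value table, the median as measured was 0.96 to 1.36 for se-2 and 0.92 to 1.38 for cbp20 cbp80. With normexp background correction it turned to -0.86 for se-2 and -0.31 for cbp20 cbp80. Over all transcripts the first 3 settings gave 0.19 to 0.99 for se-2 and 0.20 to 0.94 for cbp20 cbp80. Normexp gave -0.71 and -0.26 over all transcripts, so its change of sign was not particular to the units. It adds an offset of 50 to every signal before the log2 and the scaling, which shrinks differences among dim probes. Over the scaling probes, the 75th percentile of the log2 processed signal was 7.49 to 8.52 on the WT arrays. In se-2 it was 8.97 to 9.05 and in cbp20 cbp80 8.34 to 8.42. How the offset and these levels bear on the normexp values was not tested. Both bounds were above 0 for 153 of the 292 units, that of cbp20 cbp80 alone for 93, that of se-2 alone for 3, and neither for 43. For 107 units (36.6%) at least 1 WT array lay above all 6 mutant arrays. For 59 (20.2%) all 6 mutant arrays lay above all WT arrays with dim ones at the bound. These counts come from the contrast that the rule used and have no share over all transcripts beside them, so nothing is read from them.

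A bound of at least 2-fold in both mutants was reached by 28 of the 292 units (9.59%). The count was 64 with quantile normalization, 127 with the percentile over all probes, 63 in the deposited value table and 1 with normexp. Over all transcripts on the 6 mutant arrays the share was 13.7%, and over the transcription units detected on all 9 arrays it was 8.59%. The selection used this contrast, so nothing is read from these shares. Among the 28 were 6 of the 40 units detected on 0 WT arrays, 8 of the 117 on 1 and 14 of the 135 on 2. Several probes met the detection rule in 12 of the 28, and in 36 of all 292. Of 50 microRNA precursors that met the same detection rule, 39 (78.0%) reached 2-fold in both mutants. A bound of at least 4-fold in both mutants was reached by 6 units, which are described next. Under normexp the smaller of their 2 log2 bounds was 1.12 for AT2TU054560, 0.47 for AT5TU075750, 0.11 for AT5TU062350, 0.025 for AT3TU014020, -0.23 for AT3TU061630 and -0.29 for AT2TU003090, so that 0 of them reached 4-fold and the last pair had the opposite direction. The folds below are those of the main scaling.

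**Figure D2:**
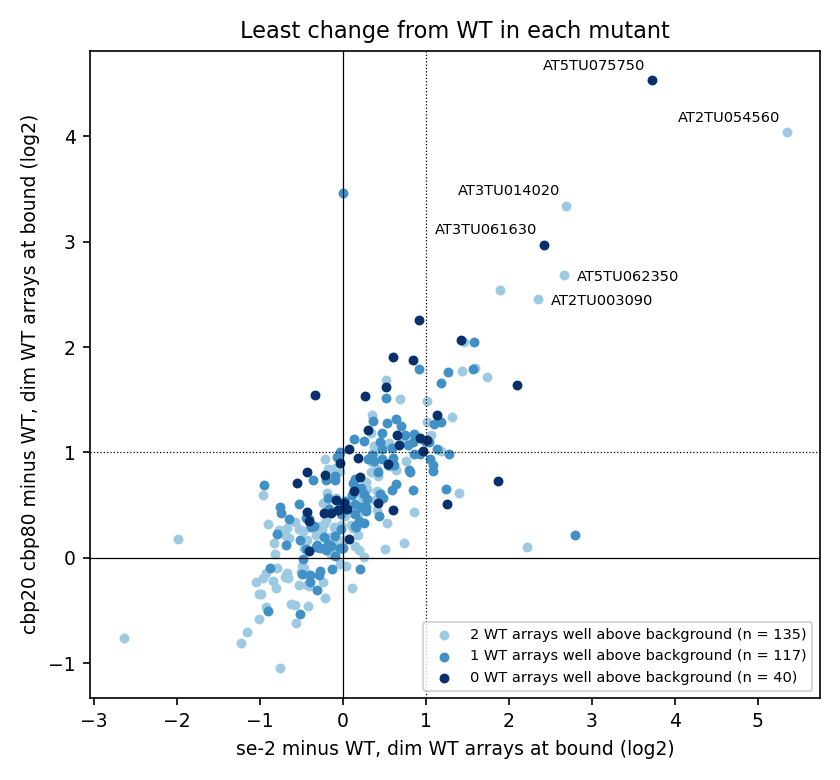
Least change from WT of each of the 292 units, as log2 of se-2 over WT (x) and of cbp20 cbp80 over WT (y) with dim WT arrays at their bound. Points are coloured by the number of WT arrays well above background, dotted lines mark 2-fold, and the 6 labelled units are at least 4-fold over WT in both mutants.

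AT2TU054560, on chromosome 2, had the widest gap to WT in se-2 of all 292 units. Its scaled log2 signal was 0.03, -0.05 and -0.11 in se-2, -1.38, -1.33 and -1.37 in cbp20 cbp80, and -5.65, -5.64 and -4.91 in WT. All 6 mutant arrays were far above all WT arrays, and the se-2 arrays were above the cbp20 cbp80 arrays. WT replicates 2 and 3 were well above background, and the unit was at least 40.8-fold over WT in se-2 and at least 16.4-fold in cbp20 cbp80. All 3 probes qualified, and a further one averaged -0.38 in se-2, -1.67 in cbp20 cbp80 and -6.28 in WT. The last one averaged -4.09, -4.76 and -7.05 in the same order, so every probe gave the same order of genotypes.

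AT5TU075750, on chromosome 5, was well above background on 0 WT arrays by its brightest probe. Its levels were -2.29, -2.28 and -2.25 in se-2, -1.57, -1.28 and -1.55 in cbp20 cbp80, and -7.11, -7.49 and -6.98 in WT. The cbp20 cbp80 arrays were the highest, and the WT arrays were all far below both mutants. The unit was at least 13.2-fold over WT in se-2 and at least 23.1-fold in cbp20 cbp80. Its other probes averaged -2.81 and -3.17 in se-2, -2.08 and -2.54 in cbp20 cbp80, and -7.87 and -6.79 in WT. One of these was well above background on 1 WT array.

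AT3TU061630, on chromosome 3, was dim on all WT arrays by all 3 probes. It read -3.45, -3.30 and -3.56 in se-2, -2.85, -2.85 and -2.98 in cbp20 cbp80, and -5.37, -6.23 and -6.43 in WT, without overlap between genotypes. The least change from WT was 5.36-fold in se-2 and 7.84-fold in cbp20 cbp80. AT3TU014020 on the same chromosome had levels of -2.96, -2.95 and -2.97 in se-2, -2.39, -2.24 and -2.31 in cbp20 cbp80, and -6.28, -5.78 and -5.56 in WT. Again cbp20 cbp80 was highest and WT lowest, and the unit was at least 6.47-fold over WT in se-2 and at least 10.1-fold in cbp20 cbp80, with 2 WT arrays well above background.

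AT5TU062350, on chromosome 5, had all 3 probes qualifying. Its levels were -2.54, -2.66 and -2.74 in se-2, -2.57, -2.63 and -2.69 in cbp20 cbp80, and -5.62, -5.53 and -4.80 in WT. The mutant arrays overlapped and all lay above WT. The means as measured were 6.36-fold over WT in se-2 and 6.43-fold in cbp20 cbp80. AT2TU003090 read -3.05, -3.04 and -3.02 in se-2, -2.86, -3.05 and -2.88 in cbp20 cbp80, and -5.13 and -5.66 on WT replicates 1 and 3. The spot on WT replicate 2 carried the flag but was marked as an outlier and left out. From the remaining WT arrays as measured, the unit was 5.12-fold over WT in se-2 and 5.50-fold in cbp20 cbp80. In the deposited value table its smaller log2 bound was 0.84, under 2-fold.

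Of the other units dim on all WT arrays by the brightest probe, AT5TU034750 came next. Its levels were -3.96, -3.75 and -4.00 in se-2, -4.11, -4.36 and -4.61 in cbp20 cbp80, and -7.40, -8.28 and -7.95 in WT. The gap to WT was wide as measured, and at the bound it was at least 4.27-fold in se-2 and at least 3.12-fold in cbp20 cbp80. AT2TU067070, with 3 qualifying probes, followed, at least 2.69-fold over WT in se-2 and at least 4.20-fold in cbp20 cbp80. AT1TU044060, AT5TU001260, AT2TU056240 and AT3TU004270 each had a single qualifying probe and bounds of 1.90-fold to 2.20-fold in se-2 and 2.02-fold to 2.56-fold in cbp20 cbp80. In AT5TU001260, se-2 replicate 3 read -4.09 against -5.31 and -5.56 on the other se-2 arrays, so 1 array raised that mean.

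Units detected on 1 WT array had bounds set partly by that array. AT2TU035060 was at least 2.98-fold over WT in se-2 and 4.14-fold in cbp20 cbp80, AT1TU100450 2.96-fold and 3.46-fold, AT1TU078770 2.41-fold and 3.40-fold, and AT2TU057210 2.27-fold and 3.16-fold. In 3 of these 4 the WT array with the flag was replicate 2. It read -4.89 for AT2TU035060 while WT replicates 1 and 3 read -5.55 and -7.22. In that unit the WT arrays differed among themselves by more than the mutants differed from each other.

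**Figure D3:**
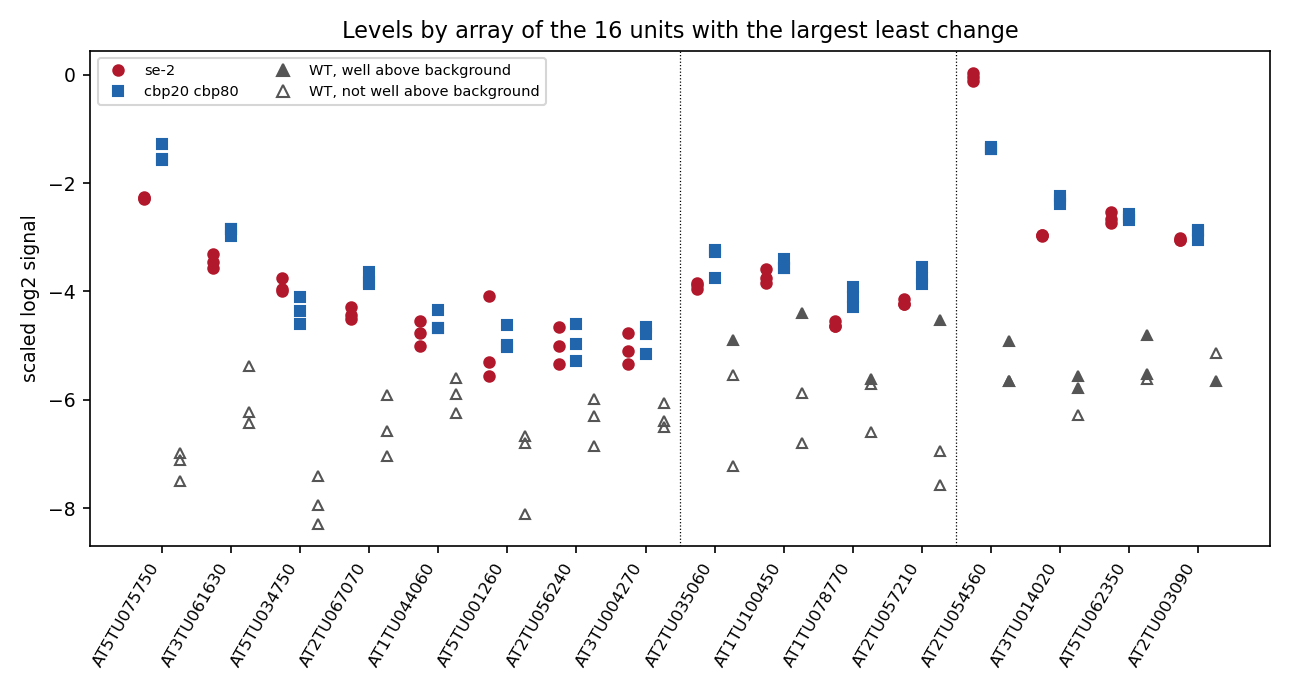
Scaled log2 signal on each array of the 16 units with the largest least change from WT, grouped by dotted lines into those well above background on 0, 1 and 2 WT arrays. Open triangles are WT arrays not well above background, and in these units the 6 mutant arrays lie above the WT arrays plotted, by most in AT2TU054560 and AT5TU075750.

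Some units with a strong probe signal in the mutants also had one on part of the WT arrays. AT2TU017630 read -1.82, -1.79 and -1.79 in se-2, -1.76, -1.88 and -1.84 in cbp20 cbp80, and -3.31, -2.08 and -5.24 in WT. WT replicate 2 was close to the mutants and WT replicate 3 far below them. The mean as measured was 3.34-fold over WT in se-2 and 3.29-fold in cbp20 cbp80. AT1TU027070 had -2.77, -2.64 and -2.62 in se-2, -2.60, -2.45 and -2.38 in cbp20 cbp80, and -4.01, -3.28 and -5.53 in WT, with the same WT replicate lowest.

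The mutants were compared by limma within their slide, over all 1384 transcripts whose probes were well above background on all 6 mutant arrays, and all 292 units entered the test. Of all transcripts tested, 59.5% differed at an adjusted p under 0.05 (Benjamini-Hochberg over all probes), 13.2% higher and 46.3% lower in se-2 than in cbp20 cbp80. Of the 292 units 147 differed (50.3%), 12 higher in se-2 (4.11%) and 135 lower (46.2%), and 145 did not pass. The share lower in se-2 was near that of all transcripts, and the share higher in se-2 was smaller. Of transcription units named with coordinates 2.04% were higher in se-2, and of those detected on all 9 arrays 7.40%. Their median differences were -0.42 and -0.32. A small share higher in se-2 and a median under that of all transcripts were thus not particular to the 292 units. Among 115 microRNA precursors tested, 71 were higher in se-2 and 18 lower. The median difference was -0.44 over the 292 units, -0.24 over all transcripts and 0.35 over the precursors. The flag reached lower scaled signals in se-2 than in cbp20 cbp80, which can bear on these values near the threshold and was not tested.

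The size of the median difference and the numbers called moved with signal and scaling. In every setting more units were called lower than higher in se-2, while over all transcripts the larger side changed with the scaling. The median difference was -0.34 in the 692 transcripts tested with the lower probe signals and -0.13 in the 692 with the higher ones, and 283 of the 292 units were among the lower ones. In that lower part, the 409 other transcripts had a median of -0.29, with 39 higher in se-2 and 188 lower. Median scaling gave 20 units higher in se-2 and 89 lower, quantile normalization gave 31 and 43, and the percentile over all probes gave 36 and 55. The deposited value table gave 34 and 39, and normexp background correction gave 3 and 289. Over all transcripts the calls higher and lower in se-2 were 298 and 401 with median scaling and 300 and 327 with quantile normalization. They were 458 and 189 with the percentile over all probes, 306 and 279 in the deposited table and 131 and 1100 with normexp. The median of all transcripts was -0.089 with median scaling, -0.0059 with quantile normalization, 0.11 with the percentile over all probes, -0.44 with normexp and 0.016 in the deposited table. Over these settings, 41 of the 147 units kept their call and direction in all (3 higher, 38 lower in se-2), and 50 in all but normexp (12 higher, 38 lower).

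Differences of at least 2-fold that passed the test were found in 27 units, 4 higher and 23 lower in se-2. Among the calls over all transcripts, at any fold, 183 were higher and 641 lower in se-2. In 144 of the 147 called units the 3 se-2 arrays did not overlap the 3 cbp20 cbp80 arrays, and over called and uncalled units this held for 168. No 2-fold or non-overlap count over all transcripts was set beside these counts, so nothing is read from them. The 5 largest differences in each direction among the non-overlapping calls follow. In these the difference is given with its SE and with limma's adjusted p, n = 3 arrays per genotype. With all 9 arrays in 1 fit, where the WT spread enters, AT3TU034020, AT5TU068670, AT1TU037270, AT5TU092090, AT5TU021390 and AT5TU023070 were no longer called, with limma's adjusted p of 0.101 to 0.492. Under normexp AT4TU043080 differed by 0.37, AT2TU058180 by 0.34, AT5TU035150 by -1.60, AT1TU037270 by -0.82 and AT5TU092090 by -0.79, all still called.

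**Figure D4:**
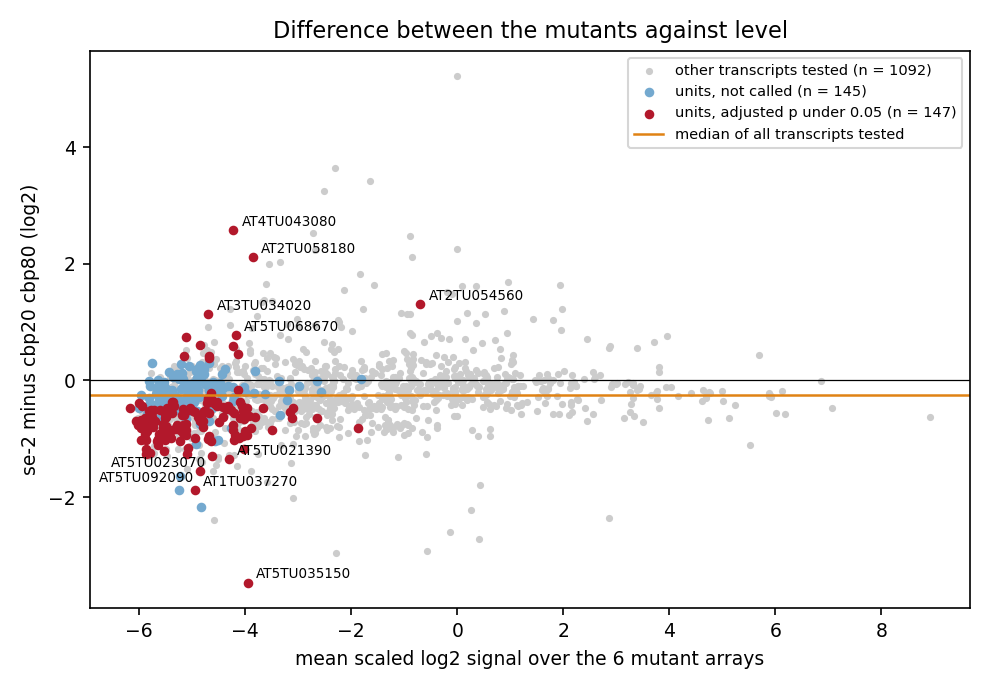
Difference between se-2 and cbp20 cbp80 (log2) against the mean scaled log2 signal over the 6 mutant arrays, for the 292 units (147 called in red, 145 not called in blue) and the other 1092 transcripts tested (grey). The orange line is the median of all transcripts, -0.24, and the 10 labelled units include AT5TU035150 at -3.46 and AT4TU043080 at 2.58.

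Highest in se-2 relative to cbp20 cbp80 was AT4TU043080, on chromosome 4. It read -2.96, -2.96 and -2.90 in se-2, -5.68, -5.44 and -5.42 in cbp20 cbp80, and -4.83, -7.23 and -6.66 in WT. The se-2 arrays stood apart from the other 6, of which only WT replicate 1 was above cbp20 cbp80. The difference between the mutants was 2.58 ± 0.079, or 5.96-fold (limma adjusted p = 5.1e-06). The unit was at least 6.94-fold over WT in se-2 and at least 1.16-fold in cbp20 cbp80. It rests on 1 probe, since its other probes were not well above background on any array.

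AT2TU058180 had a similar pattern by more probes. Its brightest probe read -2.76, -2.90 and -2.76 in se-2, -4.89, -5.02 and -4.85 in cbp20 cbp80, and -5.87, -5.48 and -3.98 in WT. WT replicate 3 lay between the mutants and the other WT arrays below both. The mutants differed by 2.11 ± 0.065, or 4.33-fold (limma adjusted p = 5.17e-06), and se-2 was at least 4.66-fold over WT. The other probes averaged -4.01 and -3.62 in se-2, -6.20 and -5.70 in cbp20 cbp80, and -5.44 and -6.15 in WT, and both were well above background on all 3 se-2 arrays.

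AT2TU054560, described above, was 2.49-fold higher in se-2 than in cbp20 cbp80, with a difference of 1.32 ± 0.049 (limma adjusted p = 1.25e-05). Its 3 probes gave differences of 0.67 to 1.32. AT3TU034020 read -4.13, -4.13 and -4.14 in se-2, -5.37, -5.05 and -5.40 in cbp20 cbp80, and -5.65, -8.45 and -6.05 in WT, all dim. The se-2 arrays were the highest, with a difference of 1.14 ± 0.097 (limma adjusted p = 2.78e-04). AT5TU068670 was 0.78 ± 0.13 higher in se-2 (limma adjusted p = 0.00391), and its qualifying probes gave 0.78 and 0.84. Under normexp these last 2 units had the opposite sign, -0.20 and -0.15.

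The largest difference of all was that of AT5TU035150, lower in se-2. It read -5.82, -5.51 and -5.71 in se-2, -2.20, -2.14 and -2.31 in cbp20 cbp80, and -7.92, -5.43 and -8.24 in WT. The cbp20 cbp80 arrays stood far above the other 6, and the se-2 arrays were no higher than the WT array with the flag. The difference of -3.46 ± 0.094 made the unit 11.0-fold higher in cbp20 cbp80 (limma adjusted p = 2.93e-06), and cbp20 cbp80 was at least 11.0-fold over WT. As with AT4TU043080, its other probes were not well above background on any array.

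AT1TU037270 differed between the mutants while WT was mixed. Its levels were -6.06, -5.81 and -5.80 in se-2, -4.21, -3.76 and -4.06 in cbp20 cbp80, and -2.34, -7.07 and -1.01 in WT. WT replicates 1 and 3 were above every mutant array and WT replicate 2 below every one. The mutants differed by -1.88 ± 0.13 (limma adjusted p = 1.42e-04). The WT mean of -3.48 had an SD of 3.18, the largest WT spread among the 292 units, and it lay above both mutant means.

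AT5TU092090 read -5.65, -5.62 and -5.62 in se-2, -4.07, -4.07 and -4.09 in cbp20 cbp80, and -6.18, -4.78 and -3.61 in WT. The WT arrays spanned the range of both mutants. The difference was -1.55 ± 0.036 (limma adjusted p = 1.87e-06), and its other qualifying probe gave -1.14. AT5TU021390 read -4.99, -5.05 and -4.89 in se-2, -3.67, -3.81 and -3.43 in cbp20 cbp80, and -5.59, -8.31 and -5.71 in WT.

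In AT5TU021390 cbp20 cbp80 was thus highest and WT lowest. Its mutants differed by -1.34 ± 0.11 (limma adjusted p = 2.07e-04) and its other qualifying probe gave -1.44. AT5TU023070 was -1.30 ± 0.15 in se-2 minus cbp20 cbp80 (limma adjusted p = 9.7e-04), with 1 qualifying probe. At the bound cbp20 cbp80 was at least 4.79-fold over WT for AT5TU021390 and at least 3.74-fold for AT5TU023070, against at least 1.89-fold and at least 1.52-fold in se-2.

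**Figure D5:**
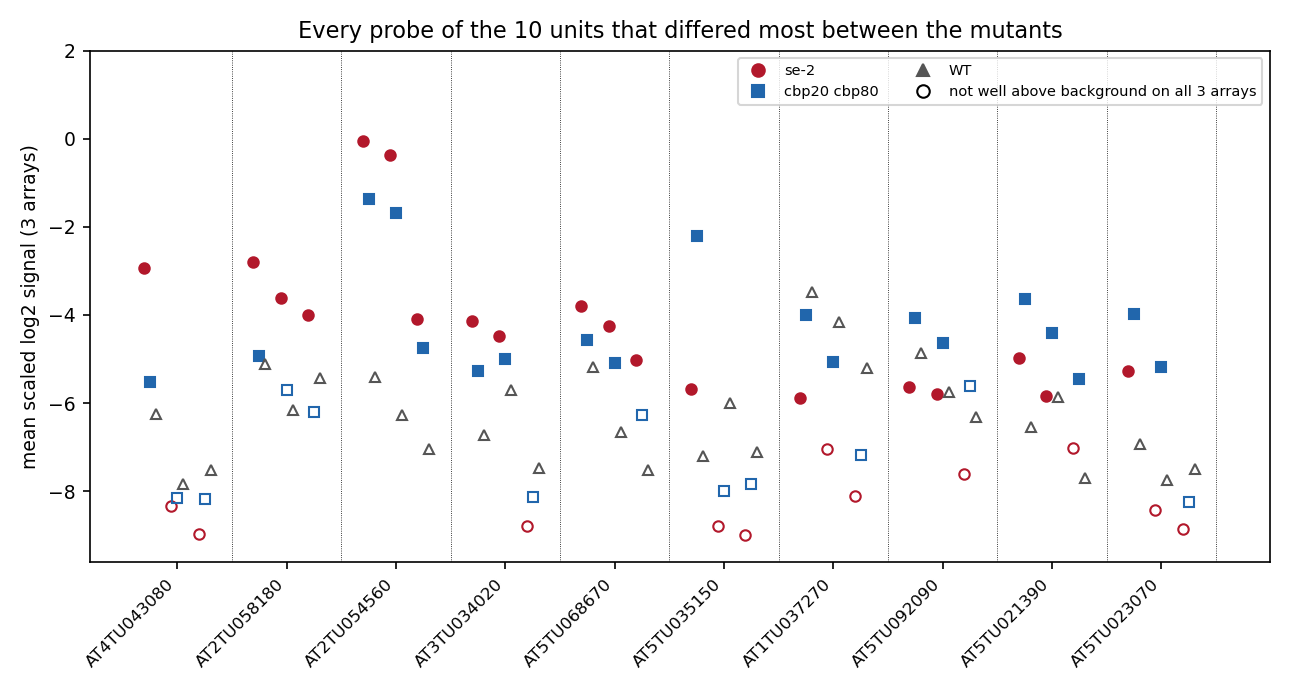
Mean scaled log2 signal in each genotype of every probe of the 10 units that differed most between the mutants, with open symbols where a probe was not well above background on all 3 arrays. In AT2TU054560 and AT2TU058180 all probes place se-2 above cbp20 cbp80, and in AT4TU043080 and AT5TU035150 a single probe carries the difference.

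Among the 6 units with the largest change from WT, 4 also differed between the mutants. The difference was -0.81 ± 0.087 in AT5TU075750 (limma adjusted p = 6.75e-04), -0.65 ± 0.050 in AT3TU014020 (limma adjusted p = 1.95e-04) and -0.55 ± 0.079 in AT3TU061630 (limma adjusted p = 0.00207), so all 3 were lower in se-2. AT3TU061630 was no longer called with the percentile over all probes (-0.20, limma adjusted p = 0.185), in the deposited table (-0.28, limma adjusted p = 0.077) or with all 9 arrays in 1 fit (limma adjusted p = 0.301). AT3TU014020 had a limma adjusted p of 0.0983 in that last fit. AT2TU054560 was the one higher in se-2. For AT5TU062350 the difference was -0.02 ± 0.066 (limma adjusted p = 0.834; -0.40 to -0.02 over its probes), and for AT2TU003090 it was -0.10 ± 0.061 (limma adjusted p = 0.196). AT5TU034750 was 0.45 ± 0.14 higher in se-2 (limma adjusted p = 0.0352). Its adjusted p was 0.0581 to 0.103 without se-2 replicate 1, 2 or 3 or cbp20 cbp80 replicate 2 or 3, and under normexp it had the opposite sign, -0.28.

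Where several probes of a unit qualified, their differences between the mutants were compared. In 31 of the 36 such units all qualifying probes gave the same sign of se-2 minus cbp20 cbp80. By the representing probe, however, 258 of the 292 units had a difference under 0. A shared sign is favoured by that shift, so nothing is read from the 31. The median range between qualifying probes of a unit was 0.198 on the log2 scale. The largest range, 1.15, was that of AT5TU058970, in which cbp20 cbp80 replicate 1 read -2.62 and the other cbp20 cbp80 arrays -5.26 each. For the other 256 units a single probe met the rule. Of all 292 units, 286 had 3 probes on the array and 6 had 2.

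The units came from all 5 chromosomes in similar shares of the transcription units on each. They made up 79 of 908 on chromosome 1 (8.70%), 58 of 786 on chromosome 2 (7.38%), 46 of 597 on chromosome 3 (7.71%), 45 of 513 on chromosome 4 (8.77%) and 64 of 765 on chromosome 5 (8.37%). The names give no coordinates, but their numbers run in the order of the 930 units that are named with coordinates, and no build is stated for those coordinates. By that order AT2TU054560 lies between starts at 16047010 and 16160107 on chromosome 2. AT5TU075750 lies between 21928056 and 22012707 on chromosome 5, and AT5TU034750 and AT5TU035150 both lie between 9834530 and 10022564 there. Whether these stretches overlap a gene, exon or intron could not be read from the files.

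Some units were next to each other in the numbering of the array. Of 23 neighbouring pairs, 7 had consecutive numbers. The number of pairs that random placement of the units would give was not set beside these counts, so no clustering is read from them. In the pair AT1TU027070 and AT1TU027080, the mean level was -2.68 and -5.28 in se-2, -2.47 and -5.13 in cbp20 cbp80, and -4.27 and -5.51 in WT. The pair AT5TU062300 and AT5TU062350 averaged -5.04 and -2.65 in se-2, -4.51 and -2.63 in cbp20 cbp80, and -5.23 and -5.32 in WT. These pairs were chosen after their values were seen.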

How the data were processed

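The members and lists were chosen with earlier results of these data known. Per the file headers, the deposited intensity values are Agilent Feature Extraction processed signals (10.5.1.1 for WT replicates 1 and 2, 10.7.3.1 otherwise), background-subtracted and detrended within each array. WT replicate 3 had another protocol of that software than the other arrays. The deposited value table holds log2 values, read as log2 from the values, whose centring is not given in the sources used here. Control spots and outlier spots were left out of the values. Membership used the flags as deposited. The mutants were compared with limma 3.58.1 (lmFit, eBayes) in R 4.3.3 over 2524 probes, tested on simulated data. A transcript took its tested probe with the highest mean over the mutant arrays. Named units were the 8, 4 and 4 with the largest smaller bound among those detected on 0, 1 and 2 WT arrays, the 5 per direction between the mutants, the 4 with the strongest mutant signals and those named earlier. Others were chosen after their values were seen. Alternatives were other scalings, the deposited table, normexp (offset 50), filters, blocks, weights and left-out arrays. As the files used hold no mean signal, normexp used the median signal. Replicate numbers did not pair arrays: same-number correlations of deviations were 0.066, 0.049 and -0.023. Precision is limited by having 3 arrays per genotype. Figures were drawn with matplotlib 3.10.9.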

Additional observations from a re-analysis of the deposited data

How the results depend on the processing

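Calls between the mutants depended on scaling and samples. The 147 units called became 74 with quantile normalization, 91 with the all-probe percentile, 292 with normexp, 73 in the deposited table, 4 of 6 tested in the brighter part of the probes and 12 with all 9 arrays in 1 fit, where the WT spread enters (165 with the slide as a random block). Leaving out 1 mutant array gave 120 to 159. Over all transcripts the 824 calls became 1600 without a filter, 459 in the brighter part and 91 with all 9 arrays, and 673 to 802 without 1 array. The splits higher and lower in se-2 were 183 and 641, against 298 and 401 with median scaling, 300 and 327 with quantile normalization, 458 and 189 with the all-probe percentile, 131 and 1100 with normexp and 306 and 279 in the deposited table. With the replicate number as a block 136 units and 743 transcripts were called, and the numbers do not pair the arrays. Membership moved to 186 without WT replicate 1 and to between 186 and 348 over all single left-out arrays. The laxer flag gave 418 units, sharing 50 (17.1% of the 292 and 12.0% of the 418).

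The median of se-2 minus WT was 0.99 with quantile normalization, 1.36 with the all-probe percentile, -0.86 with normexp, 0.96 in the deposited table, 0.073 at the bound and 0.27 to 0.48 with 1 array left out. That of cbp20 cbp80 minus WT was 0.53 with median scaling and, in the same order, 0.96, 1.38, -0.31, 0.92, 0.51 and 0.71 to 0.88. The signs under normexp are opposite, also over all transcripts (-0.71 for se-2 and -0.26 for cbp20 cbp80), and the cause was not tested. The following settings were chosen after seeing the data. The median of se-2 minus cbp20 cbp80 was -0.28 with median scaling, -0.031 with quantile normalization, -0.088 with the all-probe percentile, -0.54 with normexp, -0.019 in the deposited table and -0.48 to -0.38 with 1 array left out. Units at least 2-fold over WT in both mutants numbered 64, 127, 1 and 63 with quantile normalization, the all-probe percentile, normexp and the deposited table, and 26 to 34 without 1 WT array. Those at least 4-fold numbered 17 with the all-probe percentile, 0 with normexp and 6 to 9 without 1 WT array. Of 345 comparisons of 18 named calls, 305 kept call and direction, 37 were no longer called (13 of them with all 9 arrays in 1 fit) and 3 had the opposite sign, all under normexp, AT5TU034750 at -0.28, AT3TU034020 at -0.20 and AT5TU068670 at -0.15. Filters, blocks and the fit of all 9 arrays leave the difference itself unchanged, so its direction could not turn there. The named calls were also picked partly as the largest in these data, so nothing is read from the 305. Leaving out 1 mutant array ended the calls of AT5TU034750 and AT2TU035060, AT2TU035060 with adjusted p of 0.0695 to 0.093 by limma without se-2 replicate 1, 2 or 3 or cbp20 cbp80 replicate 2 or 3. Signals near background limit what these arrays show of these units.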

Other observations

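In a few units 1 mutant array stood far from its replicates. The SD over 3 arrays passed 1.5 in 4 units of cbp20 cbp80 and 1 unit of se-2, and in 32 units of WT. AT5TU071110 read -1.51 on cbp20 cbp80 replicate 3, against -5.74 and -5.68 on the other cbp20 cbp80 arrays. AT1TU083780 read -2.63 on the same array and -5.59 and -5.01 on the others, and AT1TU081090 read -1.97 there and -5.17 and -4.10 on the others. In AT5TU058970 the high array was cbp20 cbp80 replicate 1. The se-2 unit was AT1TU066330, with -3.83 on se-2 replicate 3 and -6.28 and -6.70 on the other se-2 arrays. These units were chosen after their values were seen.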
